A study of Mus musculus with 19 samples.

Results

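The 61 genes described here carry the names of spliceosome proteins and splicing factors, and they were measured in 4 reporter-sorted populations of mouse CD4+ T cells. They were chosen by name, as the genes whose symbol on the array begins with Sf3a or Sf3b and a number, Snrp, U2af, Lsm, Prpf, Srsf or its older form Sfrs, together with Sf3b6, which the array lists as 0610009D07Rik. They are 61 of 35018 genes on the array and carry 101 of its 55681 probes. Each gene was represented by the probe with the highest mean signal. A gene was tested if that probe was well above background, by the flag of the scanner software, on at least 4 of the 19 arrays. This held for 56 of the 61 splicing genes and left 20619 genes tested in all. By role the genes are 8 of the Sm ring, 13 of the U1 and U2 particles with SF3A and SF3B, 3 of U2AF, 12 LSm, 13 PRPF and 12 SR genes. The name rule also takes in genes with other functions, such as Lsm14a, which encodes a P-body protein. All 61 are called splicing genes below.

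All cells came from spleen and lymph nodes of adult female C57Bl/6 mice that carried the genotype Tg IL-2-GFP x FOXP3mRFP, so every population, the double-negative one included, holds both reporters. GFP reports the cytokine gene IL-2 and RFP reports FOXP3, the transcription factor that marks regulatory T cells. The GFP-RFP- population (n = 5) is labelled T CD4(+) cells, GFP+RFP- (n = 5) IL-2p T CD4(+) cells, GFP-RFP+ (n = 5) T CD4(+) Regulatory T cells, and GFP+RFP+ (n = 4) IL-2p Regulatory T CD4(+) cells. The cell type field reads conventional CD4+ T lymphocytes for all 4, also where the subtype reads regulatory. Nothing in the labels ties the replicates to separate mice, and the p-values therefore measure how much these samples varied, part of which may be technical.

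The spliceosome removes introns from messenger RNA precursors. Sm proteins form a ring on the small nuclear RNAs of the U1, U2, U4 and U5 particles, and an LSm ring binds the U6 RNA. U1 recognises the 5′ splice site, U2AF binds the 3′ splice site and helps to place U2 at the branch point with SF3A and SF3B, the PRPF proteins belong largely to the later tri-snRNP and to the catalytic machinery, and SR proteins bind exons and influence which sites are used. T cells change the splicing of many genes when they are activated, with exons of the surface phosphatase CD45 as a well-known example.

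The RNA was amplified by a global PCR before labelling, per the labels' protocols, and each sample was read on a 1-colour array. The share of spots well above background was 37.8% to 44.9% without reporter signal, 29.9% to 41.3% with GFP alone, 21.8% to 39.5% with RFP alone and 25.9% to 37.8% with both. Of 9 T cell markers, 9, 7, 7 and 6 were well above background on every array of those populations, in the same order. The summed level of 5 B cell markers, in multiples of the array's 75th percentile, ran from 0.111 to 0.937, 0.0299 to 1.63, 0.0076 to 0.526 and 0.0109 to 0.0191. The B cell marker Ms4a1 was well above background on 1 GFP-RFP- array and on no other. For 5 myeloid and dendritic cell markers the summed level ran from 6.04 to 8.06, 6.65 to 12.6, 8.08 to 23.9 and 12.0 to 26.2, with Itgax not well above background on any array. Among 5 regulatory T cell markers, Foxp3 was well above background on all 19 arrays. Ctla4 was so on 5, 5, 3 and 3 arrays of those populations, Il2ra on 1, 1, 1 and 2, Ikzf2 on 1, 3, 2 and 2, and Gpr83 on 0, 1, 4 and 0. The summed level ran from 0.0192 to 0.666, 0.0922 to 1.23, 0.022 to 2.19 and 0.267 to 1.31. These ranges overlapped, so the list did not separate the populations labelled regulatory from the others. The part of the detected share and of these other cells in the results below was not tested, apart from a fit with the detected share as a covariate. In bulk samples, fewer cells of a type and less RNA per cell cannot be told apart.

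Fewer of the splicing genes, and fewer of all genes tested, were detected on most arrays of the FOXP3 reporter-positive populations than on those of the double-negative one. Between 48 and 54 of the 61 were well above background on a GFP-RFP- array, 37 to 50 on a GFP+RFP- array, 29 to 49 on a GFP-RFP+ array and 34 to 38 on a GFP+RFP+ array. The number on GFP-RFP+ replicate 3 was 49, within the range of the double-negative cells, and the other 4 arrays of that population had 29 to 40. Of the 56 tested splicing genes a median of 87.5% was detected in GFP-RFP- and 67.9% in GFP-RFP+, beside medians of 76.8% and 60.7% for all genes tested. The share of arrays on which a gene was detected was lower in GFP-RFP+ than in GFP-RFP- for 34 of the 61, higher for 4 and equal for 23. For GFP+RFP+ against GFP+RFP- the counts were 30, 5 and 26. These counts were not made over all genes. The share of all genes tested that was detected also had a lower median in GFP+RFP+ (64.5%) than in GFP+RFP- cells (71.9%).

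**Figure D1:**
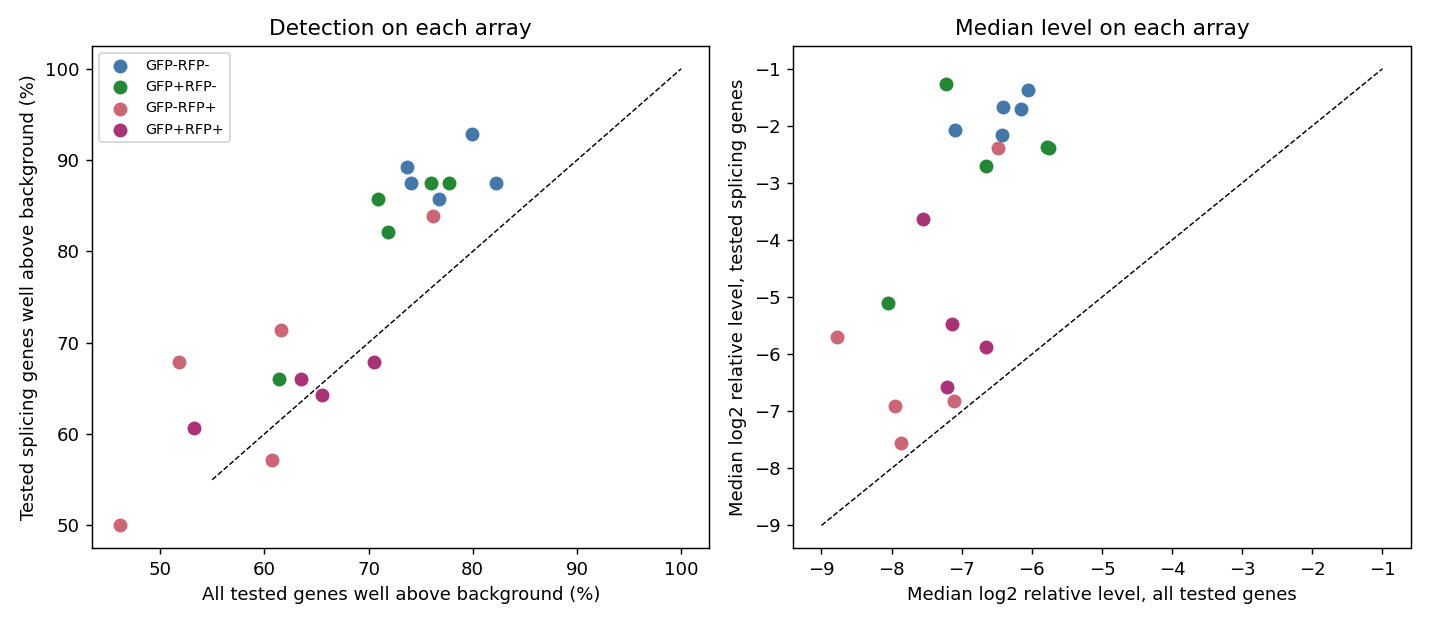
Left, the share of tested splicing genes well above background on each of the 19 arrays against the same share over all genes tested, in percent; right, the median log2 relative level of the tested splicing genes against that of all genes tested. Each point is an array, coloured by population, and the dashed line marks equal values. Splicing genes lay above the line on most arrays, and GFP-RFP+ replicate 3, at 83.9% on the left, lay just below the GFP-RFP- arrays (85.7% to 92.9%).

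Of the 61 genes, 16 were well above background on all 19 arrays, and these were Lsm14a, Prpf38b, Sf3a2, Sf3b2, Sf3b3, Snrpa, Snrpd1, Snrpe, Snrpf, Snrpg, Snrpn, Srsf1, Srsf3, Srsf5, U2af1 and U2af1l4. Prpf4 was above background on none, and Lsm1, Lsm11, Sf3b4 and Srsf4 on 1 to 3, so these 5 genes were not tested. The remaining 40 were detected on 4 to 18 arrays. Every GFP-RFP- array detected 40 of the genes, every GFP+RFP- array 30, every GFP-RFP+ array 18 and every GFP+RFP+ array 26. Detection was complete in one population and absent in another for 3 genes: Sf3b6 (GFP-RFP- against GFP-RFP+), Prpf38a (GFP-RFP- against GFP+RFP+) and Srsf2 (GFP-RFP- and GFP+RFP- against GFP+RFP+). The same counts were not made over all genes, which were also detected less often in the FOXP3 reporter-positive populations.

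**Figure D2:**
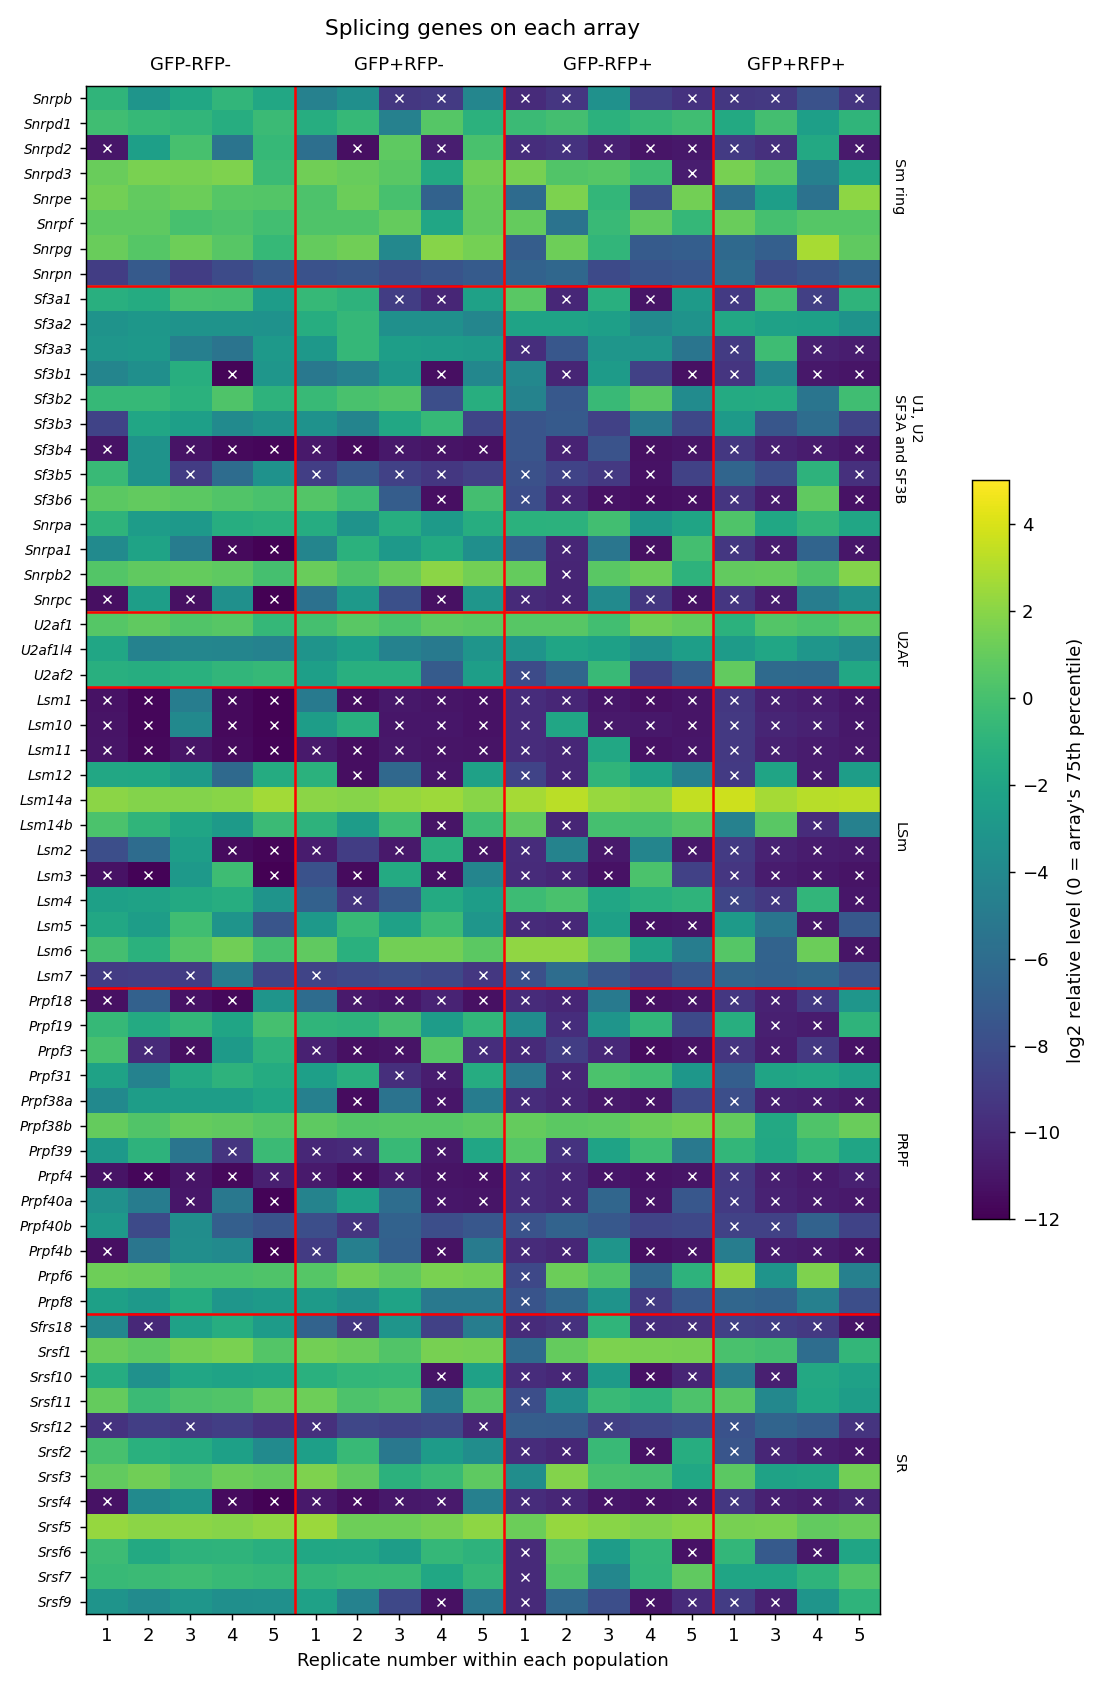
Log2 relative level (colour; 0 is the array's 75th percentile) of the 61 splicing genes, in rows by role, on the 19 arrays, in columns by population and replicate number; a white cross marks a spot not well above background. Crosses are most frequent in the GFP-RFP+ and GFP+RFP+ columns, and rows such as Sf3b6 and Prpf38a go from no cross in GFP-RFP- to crosses on most arrays of those columns. Colours compare arrays within a row, not genes.

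The level used throughout is the log2 processed signal minus the array's 75th percentile over the 6621 probes well above background on every array, so 0 is that percentile and 1 unit is a doubling. Levels are compared between arrays for one gene and not between genes. Differences were tested with limma over all 4 populations and Benjamini-Hochberg adjustment over all 20619 genes, and a gene was called at an adjusted p under 0.05. For a gene not well above background on any array of a population, the fitted difference is open-ended and a lower bound of the fold is given beside it. The bound sets the mean of the brighter population against the lowest signal well above background on each array of the dimmer one, or the gene's own signal where that was higher. It holds only for this background treatment and scaling.

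Between GFP-RFP+ and GFP-RFP- cells, the comparison of regulatory with conventional cells without IL-2 reporter signal, 4 splicing genes fell and none rose. These were Prpf38a, Snrpb, Sf3b6 and Prpf8, or 7.14% of the 56 tested, where 1.23% of all genes tested fell and 1.7% were called in either direction. At an unadjusted p under 0.05, 15 of the 56 were lower (26.8%, beside 12.2% of all genes) and 1 was higher (1.79%, beside 10.4%). The arrays of the populations did not overlap for 5 genes that were lower in GFP-RFP+ cells, namely the 4 called and Srsf9 (8.93%, beside 2.59% of all genes), and for Srsf12, which was higher (1.79%, beside 4.06%). The median difference of the 56 genes was -1.94, with 42 below 0, against a median of -0.29 and 57.1% below 0 for all genes. Under the percentile taken over all probes the median of all genes moved to 1.02 and that of the splicing genes to -0.63. With that scaling, 5 splicing genes were called lower and 4 higher (16.1% in all, beside 19.5% of all genes), while the calls over all genes went from 254 lower and 97 higher to 518 lower and 3513 higher. Over the 17 splicing genes with a probe well above background on all arrays the median difference was 0.22, with 8 below 0, and that of all such genes was also 0.22. This filter cannot keep a gene that is at background on any GFP-RFP+ array, and the probes it keeps also set the level of 0. These 17 genes therefore cannot show where the lower median of the 56 came from.

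The Sm ring genes included 1 of the called genes. Snrpb encodes SmB, a ring protein shared by the U1, U2, U4 and U5 particles, and its probe (mm9, chr2:130001112-130001171, minus strand) is shown because this single probe carries the result.
Snrpb probe: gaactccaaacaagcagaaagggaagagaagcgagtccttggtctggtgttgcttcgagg
On the 5 GFP-RFP- arrays the Snrpb level was -0.87, -3.14, -1.85, -0.79 and -1.82, well above background on each. GFP-RFP+ arrays gave -9.88, -9.33, -3.38, -8.88 and -9.49, with replicates 3 and 4 above background. The GFP-RFP+ arrays thus all lay below the GFP-RFP- arrays, with replicate 3 the closest to them. The difference was -6.50 ± 1.28 (SE, limma adjusted p = 0.0225). GFP+RFP- arrays, at -4.54, -3.56, -9.22, -9.14 and -4.20, were also all below the double-negative ones, and GFP+RFP+ arrays stood at -9.26, -9.15, -7.74 and -9.40.

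Of the other Sm genes, Snrpd2 and Snrpg had the next smallest p-values. Snrpd2, which encodes SmD2, was detected on 4 of 5 double-negative arrays and on none of the GFP-RFP+ cells, with means of -3.86 ± 4.49 and -10.35 ± 0.67 (SD, n = 5 each), and its fold of at least 29.5 came with an adjusted p of 0.15 by limma. A second Snrpd2 probe that overlaps this one by 54 bases gave the same detection on 19 of 19 arrays, with a median gap of 0.39 between both. Snrpg, which encodes SmG, was detected on all arrays, yet its GFP-RFP+ values were -6.97, 1.22, -0.83, -7.11 and -6.90 beside -0.64 to 1.24 in GFP-RFP- cells. The Snrpg arrays thus fell into high and low ones within a population, and the difference of -4.68 ± 1.98 had a limma adjusted p of 0.178. Snrpf (SmF) was at 0.36 ± 0.43 in the double-negative cells, 0.11 ± 1.21 with GFP alone, -0.94 ± 2.66 with RFP alone (SD, n = 5 each) and 0.53 ± 0.48 with both (SD, n = 4). Replicate 2 alone, at -5.49, set the Snrpf mean of the GFP-RFP+ cells apart, since the other 4 arrays lay between -0.65 and 0.97. The median difference over the 8 Sm genes was -3.01 and 6 of 8 were below 0. Their median stayed below 0 under each of the 4 other scalings.

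The U2-associated genes held the gene with the largest fitted difference among the 56. Sf3b6, whose product is a small subunit of SF3B that contacts the branch point adenosine, is read by a probe at mm9, chr12:4833859-4833918, plus strand. The first 51 of its 60 bases, up to a TGA triplet, are shown because the detection difference rests on this probe alone.
Sf3b6 probe: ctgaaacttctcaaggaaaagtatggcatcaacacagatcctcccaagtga
GFP-RFP- arrays read 0.73, 0.89, 0.70, 0.39 and 0.14, all well above background. GFP-RFP+ arrays read -7.99, -10.22, -11.17, -11.39 and -11.21, none of them above background. No array of either population came near the other, and this included GFP-RFP+ replicate 3, on which 39.5% of spots were detected. On the level used here, Sf3b6 was at least 639-fold higher in GFP-RFP- cells, with a fitted difference of -10.97 ± 2.27 (SE, limma adjusted p = 0.0294). With normexp background correction the fitted difference was -7.24, so the bound holds only for the processing used here. Within the IL-2 reporter-positive populations it did not follow the same order on every array: GFP+RFP- arrays read 0.45, -0.33, -6.97, -11.27 and -0.10. GFP+RFP+ arrays read -9.34, -10.70, 0.88 and -11.15. Replicate 4, at 0.88, was as high as the double-negative arrays, and the difference of GFP+RFP+ from GFP+RFP- did not pass the test.

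Among the remaining U1, U2, SF3A and SF3B genes, Sf3b5 and Sf3b3 had unadjusted p-values under 0.05 with differences of -4.66 ± 1.50 and -3.35 ± 1.50 (limma adjusted p = 0.0977 and 0.197). Sf3b5, another small SF3B subunit, was detected on 4 GFP-RFP- arrays and on 1 GFP-RFP+ array. Sf3b3, the large scaffold subunit, was above background on all 19 arrays and ranged from -8.75 to -5.07 in GFP-RFP+ and from -8.60 to -1.94 in GFP-RFP- cells, which overlap. Sf3b1, the subunit that clamps the branch helix and is often mutated in blood cancers, had means of -4.80 ± 4.05 and -7.37 ± 3.81 (SD, n = 5 each), a gap within the spread. Snrpb2, which encodes another U2 protein, read 0.98, -10.25, 0.62, 1.20 and -0.997 in GFP-RFP+ and -0.01 to 1.01 in GFP-RFP- cells. Replicate 2 was the one Snrpb2 array at background. Sf3a2, an SF3A subunit, was among the steadier genes, at -3.22 ± 0.14 in double-negative and -2.78 ± 0.77 in GFP-RFP+ cells (SD, n = 5 each). The median difference over 12 tested genes of this role was -2.39 with 9 below 0, and it was below 0 under each of the 4 other scalings.

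None of the 3 U2AF genes was called. U2af2, which encodes the large subunit that binds the polypyrimidine tract, read -1.28, -1.42, -1.18, -0.78 and -0.62 in GFP-RFP- cells. In GFP-RFP+ cells it read -8.11, -6.44, -0.47, -8.54 and -6.92. Replicate 3 lay with the double-negative arrays and the other 4 lay far below, and the difference of -5.04 ± 1.58 did not pass (limma adjusted p = 0.0932). U2af1, the small subunit that reads the AG at the 3′ splice site, was above background on all 19 arrays by the brighter of its 2 probes. The means of that probe were 0.34 ± 0.59 in the double-negative cells, 0.48 ± 0.39 with GFP alone, 0.66 ± 0.53 with RFP alone (SD, n = 5 each) and 0.06 ± 0.79 with both (SD, n = 4), which do not differ beyond their spread. The other U2af1 probe, above background on 16 arrays, differed by -4.25 between GFP-RFP+ and GFP-RFP- cells, where the brighter one differed by 0.32, and by -3.81 between GFP+RFP+ and GFP+RFP- cells, where the brighter one differed by -0.42. U2af1l4, a paralog of U2af1, differed by 1.16 between GFP-RFP+ and GFP-RFP- cells, also without passing, and its other probe, above background on 18 arrays, by -3.78. In GFP-RFP+ against GFP-RFP- cells the sign of both genes thus depended on the probe.

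No LSm gene was called. The median over 10 tested was -0.22 with 6 below 0, and it was above 0 with the percentile over all probes (1.09), with normexp background correction (0.34) and in the deposited series table (0.05). Lsm5, a subunit of the LSm rings, had the smallest p among them. Its levels were -1.83, -2.55, -0.18, -3.22 and -7.49 in GFP-RFP- and -9.90, -10.07, -2.36, -11.19 and -11.01 in GFP-RFP+ cells. The single high GFP-RFP+ array was again replicate 3, and the difference was -5.85 ± 1.75 (limma adjusted p = 0.0824). Without that array, the one that went against the difference, it was -7.49 (limma adjusted p = 0.0122). With each of the other 18 arrays left out, the adjusted p was 0.064 to 0.171 by limma. Lsm14a, which encodes a P-body protein rather than a splicing ring subunit, was the LSm gene with the highest mean signal and was above background on all arrays, at 2.07 ± 0.33 in the double-negative cells, 2.18 ± 0.26 with GFP alone, 2.76 ± 0.55 with RFP alone (SD, n = 5 each) and 3.21 ± 0.43 with both (SD, n = 4).

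The PRPF genes held both other called genes. Prpf38a, whose product joins the spliceosome before its activation, has its probe at mm9, chr4:108237616-108237675, minus strand. GFP-RFP- arrays gave -3.96, -2.53, -2.51, -2.54 and -2.03. GFP-RFP+ arrays gave -9.83, -10.21, -10.85, -11.07 and -8.23, of which replicate 5 alone was above background. Every GFP-RFP+ array, replicate 3 included, was more than 4 units below the lowest double-negative array. The difference was -7.32 ± 1.21 (SE, limma adjusted p = 0.0103). GFP+RFP- arrays read -4.58, -11.42, -5.53, -10.98 and -4.86, so that 3 stood between those populations and replicates 2 and 4 were at background, and GFP+RFP+ arrays at -7.94, -10.41, -10.59 and -10.85 were all below background. Its paralog Prpf38b has 2 probes that disagreed. The brighter one was above background on all 19 arrays, at 0.75 ± 0.26 in the double-negative cells, 0.61 ± 0.15 with GFP alone, 1.01 ± 0.29 with RFP alone (SD, n = 5 each) and 0.17 ± 1.33 with both (SD, n = 4). The other Prpf38b probe was above background on 5, 4, 2 and 1 arrays of those populations and differed by -4.66 between GFP-RFP+ and GFP-RFP- cells, where the brighter one differed by 0.27.

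Prpf8 encodes the large U5 protein at the centre of the catalytic site, and its probe lies at mm9, chr11:75322876-75322935, plus strand. Its level was -2.36, -2.89, -1.51, -3.05 and -2.73 in GFP-RFP- cells. In GFP-RFP+ cells it was -7.58, -6.30, -3.29, -9.01 and -7.34, with 3 of 5 arrays above background. All were below the double-negative arrays, replicate 3 by a narrow margin, and the difference was -4.20 ± 0.92 (SE, limma adjusted p = 0.0345). Of the other PRPF genes, Prpf3 (a U4/U6 protein) was detected on 3 double-negative arrays and on none of the GFP-RFP+ cells, with a fold of at least 13.4 and an adjusted p of 0.186 by limma. Prpf19, the ubiquitin ligase of the Prp19 complex, differed by -4.12 ± 1.91 (limma adjusted p = 0.21). Over 12 tested PRPF genes the median was -1.89, and 10 were below 0.

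No SR gene was called either. The median difference over 11 tested was -2.98 with 10 below 0, and it stayed below 0 under each of the 4 other scalings. Srsf10, an SR protein that represses splicing when dephosphorylated, read -1.45, -3.37, -1.92, -2.14 and -1.98 in GFP-RFP- and -9.87, -10.11, -2.72, -11.19 and -10.21 in GFP-RFP+ cells. Once more replicate 3 was the only GFP-RFP+ array within the double-negative range, and the difference was -6.65 ± 2.07 (limma adjusted p = 0.0914). Srsf9, a regulator of alternative exons, did not overlap between the populations, with -3.80 to -3.04 in GFP-RFP- against -11.08 to -6.23 in GFP-RFP+ cells, and had an adjusted p of 0.093 by limma for a difference of -5.60 ± 1.75. Srsf2, also known as SC35, differed by -4.84 ± 1.81 (limma adjusted p = 0.139), with replicates 3 and 5 of the GFP-RFP+ cells at -0.51 and -1.44 and the other 3 below background. Srsf5, the SR gene with the highest mean signal, was at 2.10 ± 0.15 in double-negative and 1.84 ± 0.41 in GFP-RFP+ cells (SD, n = 5 each). Srsf12, at -9.17 ± 0.33 and -7.83 ± 0.80 (SD, n = 5 each), was the 1 gene with a higher level at an unadjusted p under 0.05, by 1.34 ± 0.57 (limma adjusted p = 0.178). It was above background on 3 GFP-RFP- and 4 GFP-RFP+ arrays. Its processed signals before scaling overlapped, at 16.0 to 38.2 in GFP-RFP- and 23.1 to 35.7 in GFP-RFP+ cells.

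**Figure D3:**
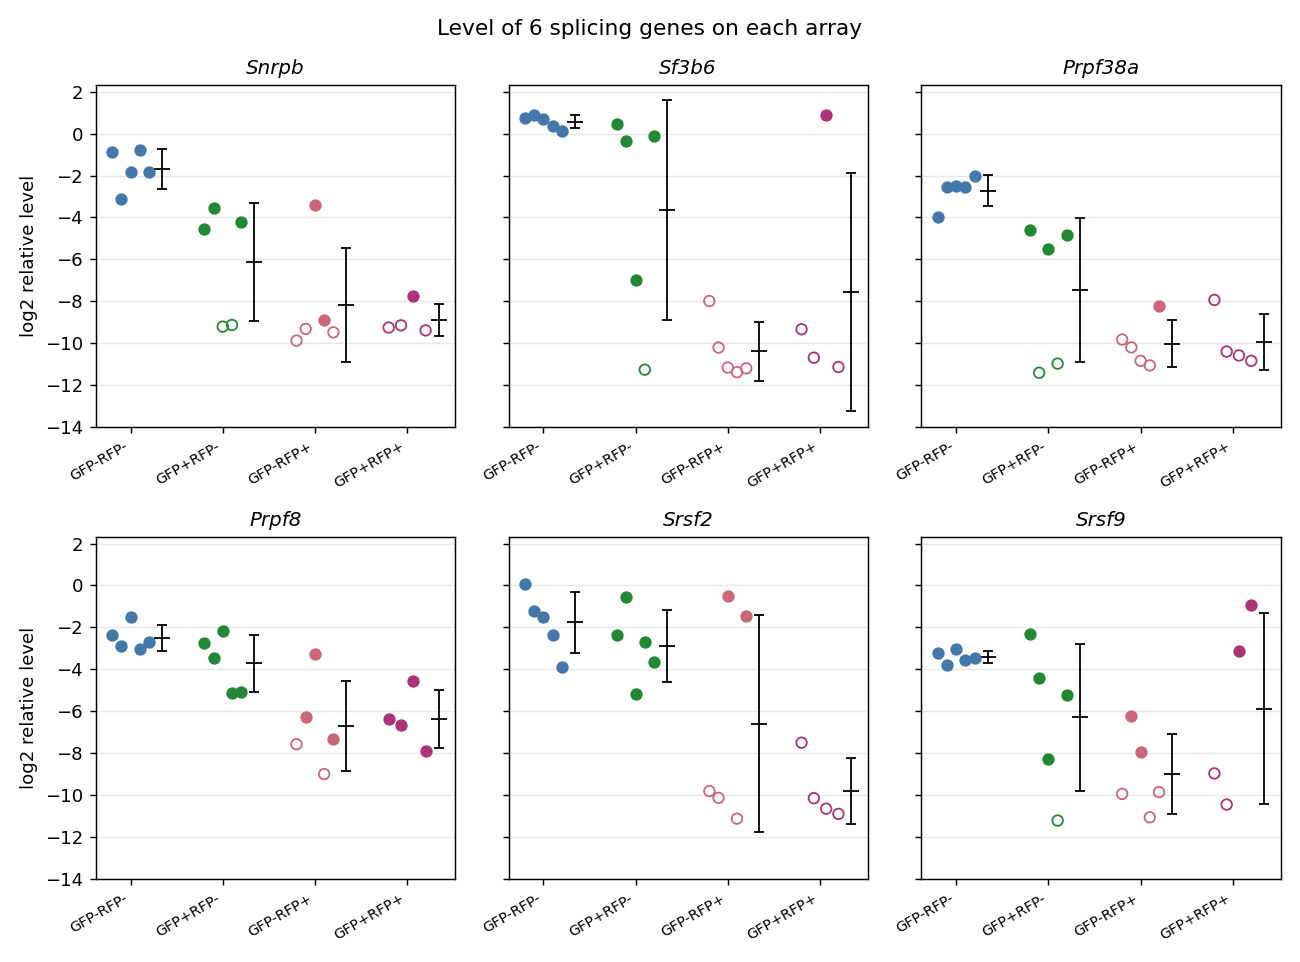
Log2 relative level (vertical axis; 0 is the array's 75th percentile) of the 4 called genes, Srsf2 and Srsf9 on each array by population; filled points were well above background and open points were not, and black bars give mean ± SD. In Sf3b6 the GFP-RFP- arrays lie between 0.14 and 0.89 and the GFP-RFP+ arrays are all open, while in Snrpb and Prpf8 a single GFP-RFP+ array (replicate 3, at -3.38 and -3.29) comes close to the GFP-RFP- arrays.

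The arrays were spread over 3 slides. Slide 1 held 2 GFP-RFP- and 2 GFP-RFP+ arrays, slide 2 held 2 and 1, and slide 3 held 1 and 2, so on slides 2 and 3 a lone array stood for a population and was assumed to vary like the rest. On slides 1, 2 and 3 Sf3b6 differed by -10.30, -10.86 and -11.44, Prpf38a by -7.11, -7.67 and -7.62, Snrpb by -5.28, -7.36 and -7.37, and Prpf8 by -3.50, -3.33 and -5.45, with no splicing gene called on any of them. With the slide as a block the 4 genes were still called, at -10.72, -7.74, -6.51 and -3.94. With the share of spots detected per array as a covariate the differences were -7.30, -6.49, -3.38 and -2.15 and none of the 4 was called (limma adjusted p = 0.562, 0.31, 0.569 and 0.594). Prpf38a kept its call whichever array was left out (limma adjusted p from 0.00308 to 0.0304). The call was lost for Sf3b6 without GFP-RFP- replicate 1, 2 or 3 or GFP-RFP+ replicate 2 or 5 (adjusted p 0.0577 to 0.0644), for Snrpb without GFP-RFP- replicate 1 or 3 or GFP-RFP+ replicate 1, 2 or 5 (0.0511 to 0.0575), and for Prpf8 without GFP-RFP- replicate 1, 2, 3 or 5 or GFP-RFP+ replicate 1, 2 or 5 (0.0584 to 0.0813), all by limma. Without GFP-RFP+ replicate 3, 9 splicing genes were called in place of 4 (16.1%, beside 5.6% of all genes, where all arrays gave 7.14% and 1.7%). Prpf8 also lost its call with quantile normalization (-2.20, limma adjusted p = 0.0594), in the deposited series table (-2.23, 0.0644), when only both populations were fitted (0.061) and without the 4 arrays on which under 30% of spots were detected (-3.14, 0.103), and in the last of these fits Snrpb lost its call too (0.0722). With normexp background correction the differences of Sf3b6, Prpf38a, Snrpb and Prpf8 shrank to -7.24, -3.86, -4.04 and -2.91 and all 4 were called. The Sf3b6 values are fitted against a population without a detected array and are no bounds.

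As 4 splicing genes fell together, the 250 bases before the transcription start were compared in RefSeq sequence (GRCm38.p6), which was held for 50 of the 61 genes. The motif CCGGAAG, a core bound by ETS factors, occurred on either strand in 16 of those 50 windows (32.0%) and in 1906 of 27025 windows of all genes (7.05%). The GC box GGGCGG occurred in 31 (62.0%) and in 32.9% of all, and TATAAA in 4 (8.0%) and in 13.0% of all. These are counts of letters and were not tested. The windows of all genes were not limited to genes tested on these arrays, so whether the shares are particular to splicing genes was not tested either. The Sf3b6 window (chr12:4817358-4817607, plus strand) is shown because it holds 2 copies, in capitals, which begin 85 and 70 bases before the start, and the Prpf8 window (chr11:75486527-75486776, plus strand) because it holds none.
Sf3b6 upstream: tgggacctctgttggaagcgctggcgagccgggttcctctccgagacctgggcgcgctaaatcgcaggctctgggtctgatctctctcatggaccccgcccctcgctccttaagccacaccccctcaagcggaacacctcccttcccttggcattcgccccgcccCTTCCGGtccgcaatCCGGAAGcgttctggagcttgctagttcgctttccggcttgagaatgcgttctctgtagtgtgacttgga
Prpf8 upstream: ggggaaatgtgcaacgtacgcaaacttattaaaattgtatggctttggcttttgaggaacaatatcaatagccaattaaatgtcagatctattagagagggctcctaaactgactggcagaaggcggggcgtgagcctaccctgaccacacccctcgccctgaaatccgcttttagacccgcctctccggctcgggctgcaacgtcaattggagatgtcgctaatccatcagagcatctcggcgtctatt
The Prpf38a window held no copy either, and no window was held for Snrpb, so 3 of the 4 genes were examined and 1 held the motif.

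Between GFP+RFP+ and GFP+RFP- cells, the same comparison within IL-2 reporter-positive cells, no splicing gene was called by limma, where 0.204% of all genes were (0.116% lower and 0.0873% higher). At an unadjusted p under 0.05, 7 of 56 were lower (12.5%, beside 5.04% of all genes) and 4 were higher (7.14%, beside 12.4%). The median difference was -1.57 with 41 of 56 below 0, against 0.22 and 44.1% for all genes. This comparison shares no array with the one above. The arrays did not overlap for Snrpa1, Srsf1 and Srsf2, all lower (5.36%, beside 1.45% of all genes), and for Lsm14a and Lsm7, both higher (3.57%, beside 6.37%).

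Srsf2 had the smallest p. On GFP+RFP- arrays it read -2.39, -0.53, -5.19, -2.68 and -3.67, all above background, and on GFP+RFP+ arrays -7.51, -10.16, -10.66 and -10.91, none above background. It was at least 56.0-fold higher in the GFP+RFP- cells, with a fitted difference of -6.92 ± 1.92 (SE, limma adjusted p = 0.117). Its 3 probes (the one used lies at mm9, chr11:116711994-116712053) did not give the same picture, since the others differed by -4.78 and -1.15 and the last of these was above background on all 4 GFP+RFP+ arrays. Srsf1, the SR protein ASF/SF2, read 0.14, -0.07, -5.89 and -0.72 in GFP+RFP+ and 0.36 to 1.49 in GFP+RFP- cells, so that the arrays separated by a narrow margin except for 1 low array. Its other 2 probes had the opposite sign, with differences of 0.71 and 3.20 beside -2.80 for the one used.

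Among the U2 genes, Snrpa1, which encodes a U2 protein, read -9.22, -10.55, -6.50 and -10.96 in GFP+RFP+ and -4.27 to -1.12 in GFP+RFP- cells, a difference of -6.61 ± 2.21 (limma adjusted p = 0.152). A second Snrpa1 probe that overlaps it by 53 bases gave the same detection on 19 of 19 arrays. The GFP-RFP- cells did not stand with the GFP+RFP- cells, as 2 of their 5 arrays were also below background. Sf3a3, an SF3A subunit, was above background on all 5 GFP+RFP- and on 1 of 4 GFP+RFP+ arrays, with a difference of -5.32 ± 1.77 (limma adjusted p = 0.151). Lsm5, Prpf19, Lsm6 and Prpf8 differed by -4.79, -4.81, -4.63 and -2.65 with limma adjusted p-values of 0.201, 0.235, 0.249 and 0.183. A second Lsm5 probe differed by 0.12 in this comparison.

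Of the genes higher in GFP+RFP+ cells, Lsm14a had the smallest p. Its GFP+RFP+ arrays read 3.73, 2.69, 3.14 and 3.26 and its GFP+RFP- arrays 2.07, 1.94, 2.34, 2.54 and 1.98. Every GFP+RFP+ array was above every GFP+RFP- array, by a narrow margin, and the difference of 1.03 ± 0.37 did not pass (limma adjusted p = 0.175). Lsm7, Srsf12 and Prpf39 were at 1.69, 1.34 and 5.41 with limma adjusted p-values of 0.258, 0.262 and 0.268. The processed signals of Lsm7 before scaling overlapped, at 21.7 to 52.0 in GFP+RFP- and 29.6 to 62.7 in GFP+RFP+ cells. For Prpf39, 2 probes gave opposite signs in this comparison.

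**Figure D4:**
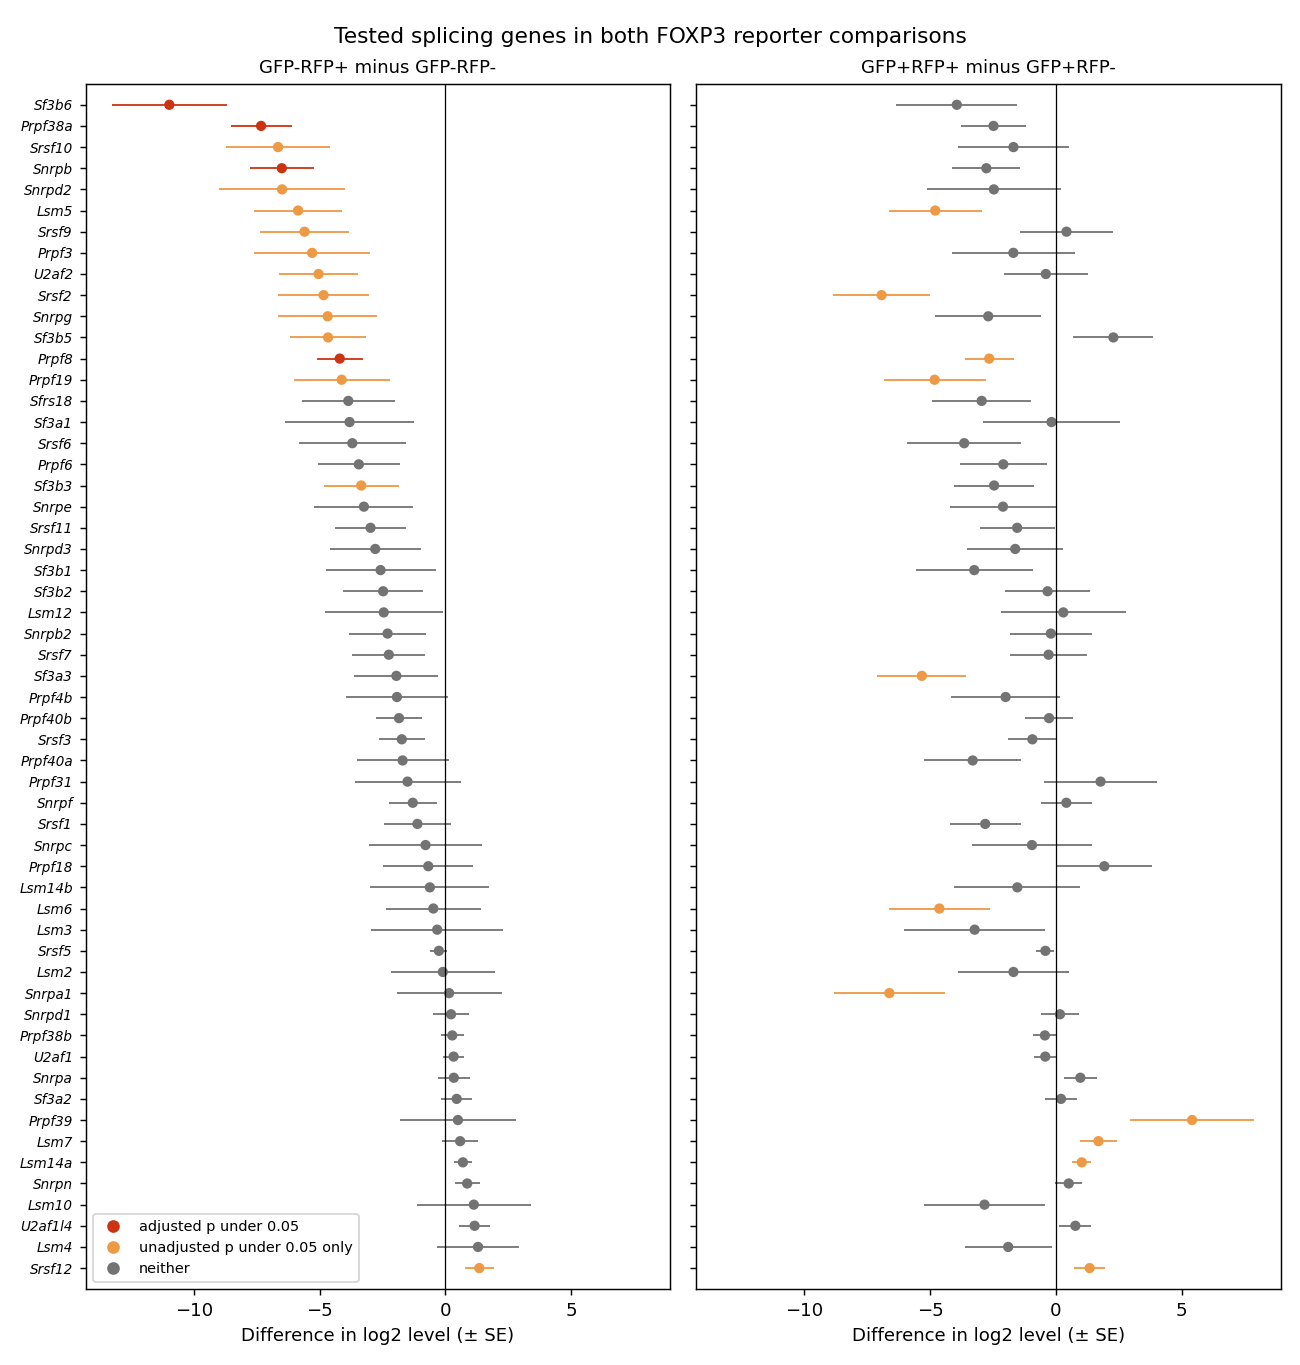
Difference in log2 level ± SE of the 56 tested splicing genes, on the left GFP-RFP+ minus GFP-RFP- and on the right GFP+RFP+ minus GFP+RFP-, with genes in the same order by the left panel; red marks an adjusted p under 0.05, orange an unadjusted p under 0.05 only. On the left 4 genes are red, from Prpf8 at -4.20 to Sf3b6 at -10.97, and on the right none is.

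The test of the difference between both comparisons called no splicing gene, where 0.0097% of all genes were called by limma. At an unadjusted p under 0.05 there were 5, among 0.786% of all genes below 0 and 4.14% above 0: Sf3b5 at 6.95, Prpf38a at 4.85, Srsf9 at 6.02, Snrpa1 at -6.76 and Sf3b6 at 7.04, with adjusted p-values of 0.931 to 0.999 by limma. The values of Prpf38a and Sf3b6 are fitted with a population in which no array was above background, GFP+RFP+ and GFP-RFP+ respectively, and are not bounds. The 4 genes called without IL-2 reporter signal are therefore not shown to respond differently with it. Side by side, the differences were -7.32 and -2.48 for Prpf38a, -6.50 and -2.76 for Snrpb, -10.97 and -3.93 for Sf3b6, and -4.20 and -2.65 for Prpf8. As a bound, Prpf38a was at least 2.37-fold higher in GFP+RFP- than in GFP+RFP+ cells, and it was detected on 3 of the 5 arrays of the brighter population.

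The populations that differ by the IL-2 reporter gave no called splicing gene. Between GFP+RFP- and GFP-RFP- cells no splicing gene was called by limma (0.0097% of all genes were), 4 had an unadjusted p under 0.05 and a lower level (7.14%, beside 3.1% of all genes), and none had a higher one at that p (2.06% of all genes did). Prpf38a differed by -4.76 ± 1.21 (limma adjusted p = 0.535), Snrpb by -4.44 ± 1.28 (0.605), Sf3b5 by -4.17 ± 1.50 (0.828) and Prpf40b by -2.02 ± 0.91 (0.969). Prpf38a and Snrpb were lower without overlap between these populations (3.57%, beside 0.713% of all genes), and no splicing gene was higher without overlap (1.68% of all genes were). Both comparisons of Prpf38a and Snrpb share the GFP-RFP- arrays, so they are not separate evidence. The median difference was -0.54 against -0.03 for all genes.

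Between GFP+RFP+ and GFP-RFP+ cells again none was called by limma (0.00485% of all genes were), no splicing gene was free of overlap (0.204% of all genes were lower and 0.829% higher without overlap), and 1 had an unadjusted p under 0.05 (1.79% lower, beside 1.16% of all genes lower and 4.25% higher). This was Lsm4, another LSm ring subunit, at -0.36, 0.12, -1.95, -1.27 and -0.94 in GFP-RFP+ cells. In GFP+RFP+ cells it read -8.45, -9.16, -0.81 and -10.99. Replicate 4 was within the GFP-RFP+ range and the other 3 were below background, and the difference was -6.47 ± 1.72 (limma adjusted p = 0.568). Without replicate 4, the array that went against the difference, it was -8.66 (limma adjusted p = 0.0422). With each of the other 18 arrays left out, the adjusted p was 0.327 to 0.922 by limma. The median difference was 0.16, against 0.41 for all genes.

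Many splicing genes varied widely between replicates. The within-population SD of the log2 level, pooled over the 4 populations, had a median of 2.83 over the 56 tested genes and of 1.67 over all genes tested. It was over 3 for 23 of the 56 (41.1%, beside 23.1% of all genes) and under 1 for 9 (16.1%, beside 28.2%). All 9 but Srsf12 were detected on every array, and Srsf5, between 0.94 and 2.41, was the narrowest of them. Lsm3, the gene with the largest spread, was read either high or at background, with -2.78 and -0.29 against -11.17, -11.83 and -12.04 within the GFP-RFP- cells. Where a gene had several probes, their differences had 1 sign in 18 of 26 genes for GFP-RFP+ against GFP-RFP-, 18 for GFP+RFP+ against GFP+RFP-, 15 for GFP+RFP- against GFP-RFP- and 17 for GFP+RFP+ against GFP-RFP+. All 4 called genes had a single probe.

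**Figure D5:**
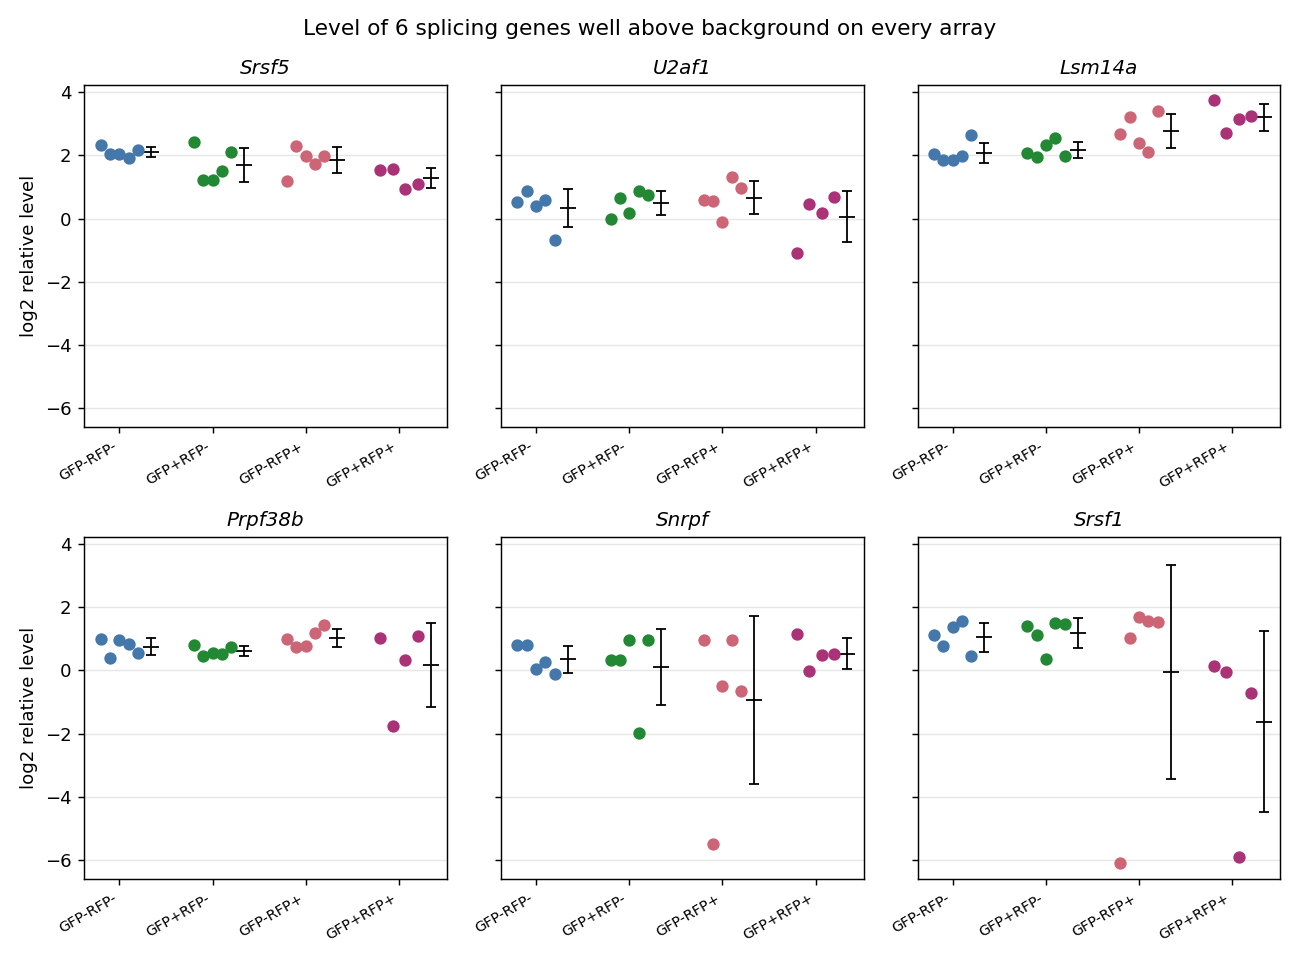
Log2 relative level (vertical axis; 0 is the array's 75th percentile) on each array, by population, of 6 of the 16 splicing genes that were well above background on all 19 arrays, with black bars for mean ± SD. Srsf5 stays between 0.94 and 2.41 and U2af1 between -1.09 and 1.31, whereas Snrpf and Srsf1 have single low arrays, at -5.49 in Snrpf and at -6.10 and -5.89 in Srsf1.

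Other genes of the spliceosome and of splicing regulation, listed by function and outside the name rule, included 2 called genes. Of 75 such genes 72 were tested, and Cwc15 and Srpk1 fell in GFP-RFP+ against GFP-RFP- cells (2.78%, beside 1.23% of all genes called lower and 1.7% called in either direction). Cwc15, a component of the catalytic spliceosome, had means of 0.05 ± 0.33 and -6.16 ± 3.11 (SD, n = 5 each) and differed by -6.21 ± 1.10 (limma adjusted p = 0.0132). Srpk1, a kinase that phosphorylates SR proteins, had means of -2.36 ± 0.47 and -8.35 ± 2.70 (SD, n = 5 each) and differed by -5.99 ± 1.36 (limma adjusted p = 0.0384). The median over the 72 was -2.40, with 62 below 0 (86.1%), beside -0.29 and 57.1% for all genes. None was called by limma in the other comparisons. At an unadjusted p under 0.05, in either direction, there were 26 in GFP-RFP+ against GFP-RFP- (36.1%, beside 22.6% of all genes) and 8 in GFP+RFP+ against GFP+RFP- (11.1%, beside 17.4%). There were 0 in GFP+RFP- against GFP-RFP- (beside 5.16%) and 6 between GFP+RFP+ and GFP-RFP+ cells (8.33%, beside 5.41%). In GFP+RFP+ against GFP+RFP- 75% were below 0 (44.1% of all genes), with a median of -0.79 beside 0.22. In the other 2 comparisons, in the same order, 65.3% and 31.9% were below 0 (51.4% and 30.8% of all genes).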

How the data were processed

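RNA of CD4+ T cells sorted into 4 populations was read on 19 one-colour Agilent arrays, grouped by sample title. Per the file headers, the authors made the deposited intensity values with Agilent Feature Extraction 10.7.3.1, which subtracted background within each array and did no scaling between arrays. Detection came from the deposited flags for well above background. A deposited series table of log2 values, with column medians from 3.21 to 3.226, served as an alternative, and how the authors normalized it was not given in the sources used here. Arrays have no read depth, and the precision is limited by the number of arrays and by signal over background.

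Spots marked as outliers by the software were left out (3296), and repeated spots were averaged. Each array's log2 signal was taken relative to its 75th percentile, computed from 6621 probes that every array detected well above background. Of the probes detected on 4 or more arrays (28101), the one with the highest mean signal stood for its gene. Genes were named by RefSeq accession where it matched (27235 probes) and by the files otherwise (28446). Coordinates are mm9, from the files. A single linear model (limma version 3.58.1, run under R version 4.3.3 and version 1.17.8 of the data.table package) covered the 4 populations, with Benjamini-Hochberg adjustment over 20619 genes in each of 5 contrasts, and was tested on simulated data. Tables and figures used Python 3.11.15 with pandas 2.3.3, numpy 2.4.6 and matplotlib 3.10.9. The sequences upstream of genes are from RefSeq, GRCm38.p6.

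The splicing genes, the lists and the tests were chosen with earlier results of these data known. Genes named with full values were those called in any contrast, the members of each role with the highest mean level and with the smallest p, members detected on all arrays of a population and none of another, and called genes of the other splicing list; further genes were named from the unadjusted counts after their values were seen. The titles give each replicate the letter M and a number, shared between populations, and do not say what a number stands for. The numbers were not used as pairs in the main fit. Deviations of same-numbered arrays correlated with a median r of 0.0134 (from -0.0742 to 0.0935) over 27 pairs, which cannot show whether the samples were paired. Alternatives were 17 other settings and each of the 19 arrays left out in turn. The block by day of scan was chosen after seeing the data.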

Additional observations from a re-analysis of the deposited data

Results flagged for a closer look

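In 14 of 56 combinations of a named splicing gene and a population, 25% of those examined, a single array stood far from the others of its population. The gap asked for is one that chance gives in about 1 in 20 groups of normally distributed values. Several of these genes read either high or at background, so that rate cannot serve as the chance rate here. No rate over all genes is given, and the genes were partly named for a small p or for all-or-none detection. All values are log2 levels relative to the array's 75th percentile.

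GFP-RFP+ replicate 3 was the high array for Lsm5 (-2.36, others -11.19 to -9.90), Snrpb (-3.38, others -9.88 to -8.88), Srsf10 (-2.72, others -11.19 to -9.87) and U2af2 (-0.47, others -8.54 to -6.44). Replicate 2 of the same population was the low one for Snrpb2 (-10.25, others -0.997 to 1.20) and Snrpf (-5.49, others -0.65 to 0.97).

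GFP+RFP- replicate 4 was the low array for Snrpf (-1.97, others 0.32 to 0.95), Srsf10 (-11.10, others -2.27 to -0.68) and U2af2 (-7.09, others -2.45 to -1.26). GFP+RFP+ replicate 4 was high for Sf3b6 (0.88, others -11.15 to -9.34) and Snrpb (-7.74, others -9.40 to -9.15), and replicate 1 was high for Prpf38a (-7.94, others -10.85 to -10.41). None of the 4 GFP+RFP+ arrays was well above background for Prpf38a, so that gap lies among background signals. In the GFP-RFP- cells, replicate 1 was low for Prpf38a (-3.96, others -2.54 to -2.03) and replicate 5 was high for Lsm14a (2.64, others 1.84 to 2.04).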

How the results depend on the processing

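Of the comparisons, the count of called splicing genes moved most in GFP-RFP+ against GFP-RFP- cells, where it was 4, all lower (7.14%, beside 1.7% of all genes). It was 9 with the percentile over all probes (5 lower and 4 higher, 16.1% beside 19.5%). Quantile normalization gave 7 (4 lower and 3 higher, 12.5% beside 16.8%). Normexp background correction gave 9 (7 lower and 2 higher, 16.1% beside 23.4%). The deposited series table also gave 9 (5 lower and 4 higher, 16.1% beside 17.5%). Under these settings the share called in either direction was below that of all genes. With the percentile over all probes, most calls over all genes were higher ones, so that share says little about the lower calls. The share of lower calls alone was not compared under these settings. Prpf8 was not among the 7 or among those of the series table, and Lsm5 was. The count was 0 with the filter that asks for detection on all arrays (10.3% of all genes), which cannot keep a gene at background on any array. The 17 splicing genes it kept had a median of 0.22, where all tested ones had -1.94. The count was also 0 within slide 1 and with the detected share as a covariate, and 2 without the 4 arrays under 30% detected (0.761% of all genes). With arrays left out in turn it ran from 1 to 9. In GFP+RFP+ against GFP+RFP- cells it was 0, but 2 with normexp (Lsm14a and Srsf12, both higher; 3.57% beside 24.3% of all genes), 1 with the filter on all arrays (Lsm14a; 5.88% beside 12.9%), 2 when only both populations were fitted (Snrpa1 and Srsf2, both lower; 3.57% beside 0.359%), and 0 to 1 with arrays left out (1 without GFP+RFP+ replicate 3). In GFP+RFP+ against GFP-RFP+ cells it ran from 0 to 1 (1 without GFP+RFP+ replicate 4). Apart from the alternatives' own construction, the cause was not tested.

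Whether the replicate numbers pair the samples is not known. With a replicate block 2 of 56 splicing genes were called in place of 4, while the calls over all genes went from 351 to 199 (0.965%). Prpf38a and Prpf8 stayed, and Sf3b6 and Snrpb each had an adjusted p of 0.0537 by limma. The sign turned in 4 differences, none of them called and each resting on a lone array in one or both populations: within slide 2 for Snrpg (GFP-RFP+ minus GFP-RFP-, 0.67) and Lsm6 (GFP+RFP+ minus GFP+RFP-, 1.07), and within slide 3 for Prpf39 (GFP+RFP+ minus GFP+RFP-, -0.014) and Prpf40b (GFP+RFP- minus GFP-RFP-, 0.23). For genes at background on part of the arrays, signal over background limits the size of a difference that can be read.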
